A study of Mus musculus with 8 samples.

Results

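Cyclin-dependent kinase (CDK) inhibitors and the p53 pathway were followed through 9 genes, Cdkn1a, Cdkn1b, Cdkn1c, Cdkn2a, Cdkn2b, Cdkn2c, Trp53, Mdm2 and Ccng1. They were taken by gene symbol from the 31053 features of the deposited count matrices, and each symbol had 1 row. The samples were 8 large subcutaneous B16F10 tumours profiled by droplet-based 3′ single-cell RNA sequencing with no sort stated. B16F10 is a transplantable C57BL/6 melanoma cell line. Hosts were Rosa26::CreERT2:Atf4wt/wt mice (4 tumours, called Atf4 WT/WT) or Rosa26::CreERT2:Atf4fl/fl mice (4 tumours, called Atf4 Δ/Δ), and both genotypes carried the tamoxifen-inducible Cre and received tamoxifen. The labels give every host an age of 12 weeks, and 2 of the 4 Atf4 WT/WT hosts and 1 of the 4 Atf4 Δ/Δ hosts were female. Rosa26 drives the Cre in nearly all host tissues, so that Atf4, a transcription factor of the integrated stress response, was removed from stromal and immune cells together, whereas the injected melanoma cells kept their own Atf4. The comparison of genotypes asks what the host's Atf4 does to each cell class of the tumour, and the comparisons of classes and cell states describe where each gene was found.

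Progression through the cell cycle is driven by cyclin-bound CDKs, and 2 families of small proteins hold these kinases back. The Cip/Kip proteins p21 (Cdkn1a), p27 (Cdkn1b) and p57 (Cdkn1c) bind cyclin-CDK complexes broadly, whereas the INK4 proteins p16Ink4a (Cdkn2a), p15 (Cdkn2b) and p18 (Cdkn2c) bind the CDKs that work with D-type cyclins. Cdkn2a also encodes p19Arf from a different first exon, and p19Arf restrains Mdm2. Trp53 encodes p53, which is controlled mainly as a protein. Mdm2 encodes the ubiquitin ligase that marks p53 for degradation and is itself a p53 target, as are Cdkn1a and Ccng1 (cyclin G1). Loss of Cdkn2a is common in melanoma.

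In GRCm38, the build of the count files, Cdkn1a lies on chromosome 17 (29090976-29100727, plus strand), Cdkn1b on chromosome 6 (134920401-134925513, plus) and Cdkn1c on chromosome 7 (143458339-143461050, minus). Cdkn2a (89274471-89294653, minus) and Cdkn2b (89306299-89311039, minus) are neighbours on chromosome 4, with Mtap (89137122-89181081, plus) on one side of the pair. Cdkn2c is farther along the same chromosome (109660876-109667189, minus). Trp53 (69580359-69591873, plus) and Ccng1 (40748552-40755311, minus) are both on chromosome 11, and Mdm2 is on chromosome 10 (117688875-117710758, minus). The 3′ counts of Cdkn2a do not separate p16Ink4a from p19Arf, which share their last exons.

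The 250 bases before the annotated starts of Cdkn1a, Mdm2 and Ccng1 are shown because these p53 targets were all highest in G1-called melanoma-like cells. Mdm2 and Ccng1 were also higher in cells with a Cdkn1a UMI, a split that Cdkn1a itself defined. The sequences are from RefSeq on GRCm38.p6, and capitals mark matches to the p53 decamer, the repeated element of a p53 site. Cdkn1a is on the plus strand at chr17:29090729-29090978, Mdm2 on the minus strand at chr10:117710759-117711008 and Ccng1 on the minus strand at chr11:40755287-40755536.
Cdkn1a: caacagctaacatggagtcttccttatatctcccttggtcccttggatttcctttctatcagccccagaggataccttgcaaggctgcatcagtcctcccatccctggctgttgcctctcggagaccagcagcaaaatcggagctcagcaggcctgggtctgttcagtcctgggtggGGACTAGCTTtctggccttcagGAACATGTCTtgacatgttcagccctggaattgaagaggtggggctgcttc
Mdm2: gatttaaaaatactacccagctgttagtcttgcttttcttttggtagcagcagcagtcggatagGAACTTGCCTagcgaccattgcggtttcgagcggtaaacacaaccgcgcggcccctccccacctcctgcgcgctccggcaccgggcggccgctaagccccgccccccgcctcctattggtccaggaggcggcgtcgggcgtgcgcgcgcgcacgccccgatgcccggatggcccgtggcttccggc
Ccng1: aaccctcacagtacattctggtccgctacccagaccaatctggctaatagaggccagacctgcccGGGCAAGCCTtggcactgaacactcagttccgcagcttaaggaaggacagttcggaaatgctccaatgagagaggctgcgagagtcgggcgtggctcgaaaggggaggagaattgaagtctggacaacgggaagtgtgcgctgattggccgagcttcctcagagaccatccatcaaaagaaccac
Both strands of 300 bases around each start were searched for 5 motifs over 32851 promoters. A decamer was found in 8.36% of them, and 2 decamers forming a full site in 0.0731%. The Cdkn1a sequence held a full site, with decamers at -73 and -51 from the start, and the sequence at a second annotated start of the gene held no decamer. The sequences of Mdm2 (-186) and Ccng1 (-185) each held a single decamer, as did that of Trp53 (-75). The E2F motif TTTCCCGC occurred in 1.07% of promoters and, among the 9 genes, at -99 from the first Cdkn2a start, and the E2F motif TTTGGCGC (0.514% of promoters) was in none of the windows searched. The ATF4-type motif TTGCATCA, in 0.895% of promoters, was not among the letters of any of these windows either. A match describes the letters only. No entry for Cdkn1c was matched.

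The 8 tumours held 41925 barcodes, with 37283598 to 74942137 unique molecular identifiers (UMIs) per tumour, and 28170 cells remained after filtering. Clusters were named from marker genes, with the 9 genes kept out of the clustering. The melanoma-like class held 23716 cells (257205285 UMIs), the class resembling cancer-associated fibroblasts (CAF-like) 727 cells (3864022 UMIs, 10 to 240 cells per tumour) and the immune class 895 cells (1791068 UMIs, 35 to 220 cells per tumour). A further 37 cells were endothelial-like, and 2795 low-depth cells in 2 clusters were not named. Atf4 itself matched the labels: in CAF-like cells it was at 90.1 to 171 CPM in Atf4 Δ/Δ and 278 to 323 in Atf4 WT/WT tumours (log2 fold change -1.30, adjusted p = 0.0375), in immune cells at 54.7 to 94 and 224 to 293 (log2 fold change -1.53, adjusted p = 0.0349), and in melanoma-like cells the log2 fold change was 0.03. Atf4 was lower in every alternative run in CAF-like and immune cells, but it passed in 5 of 17 in CAF-like cells (adjusted p from 5.77e-06 to 0.415) and in 4 of 15 in immune cells (0.000225 to 0.367). Levels are in CPM, a gene's UMIs per 1000000 UMIs of the same class in the same tumour, and errors of levels are SD over tumours. No doublets were removed, and a subcluster of 80 CAF-like cells and one of 32 immune cells carried melanoma genes (Dct, Pmel) among their leading genes. These cells were deep, so that the former held 24.5% of all CAF-like UMIs and the latter 298774 of the 1791068 immune UMIs. Melanoma marker RNA in CAF-like cells was 7.19% to 27.9% of its level in melanoma-like cells in Atf4 Δ/Δ and 11.9% to 31.7% in Atf4 WT/WT tumours, and in immune cells it was 7.58% to 23.7% and 9.86% to 41.6%.

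The 9 genes fell into those found in every class and those at or near 0 in melanoma-like cells. Over all 8 tumours CAF-like cells carried more Cdkn1c, Ccng1, Mdm2 and Cdkn1a and less Cdkn2c, Cdkn1b and Trp53 than melanoma-like cells, although Cdkn1a was lower in the CAF-like cells of 3 of the 4 Atf4 WT/WT tumours. The 7 genes that could be tested passed, among a background of 53.5% of 11770 genes, and Cdkn1c entered the test only through its counts in CAF-like cells. Cdkn2a and Cdkn2b had too few counts for this test. By an exact sign-flip permutation test over the 8 tumours, adjusted over all genes, Cdkn1b and Trp53 passed. Ccng1 (adjusted p = 0.0506), Mdm2 (0.174), Cdkn1a (0.153) and Cdkn2c (0.11) did not. Cdkn1c passed as well, but its entry through CAF-like counts makes that pass no further support.

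**Figure D1:**
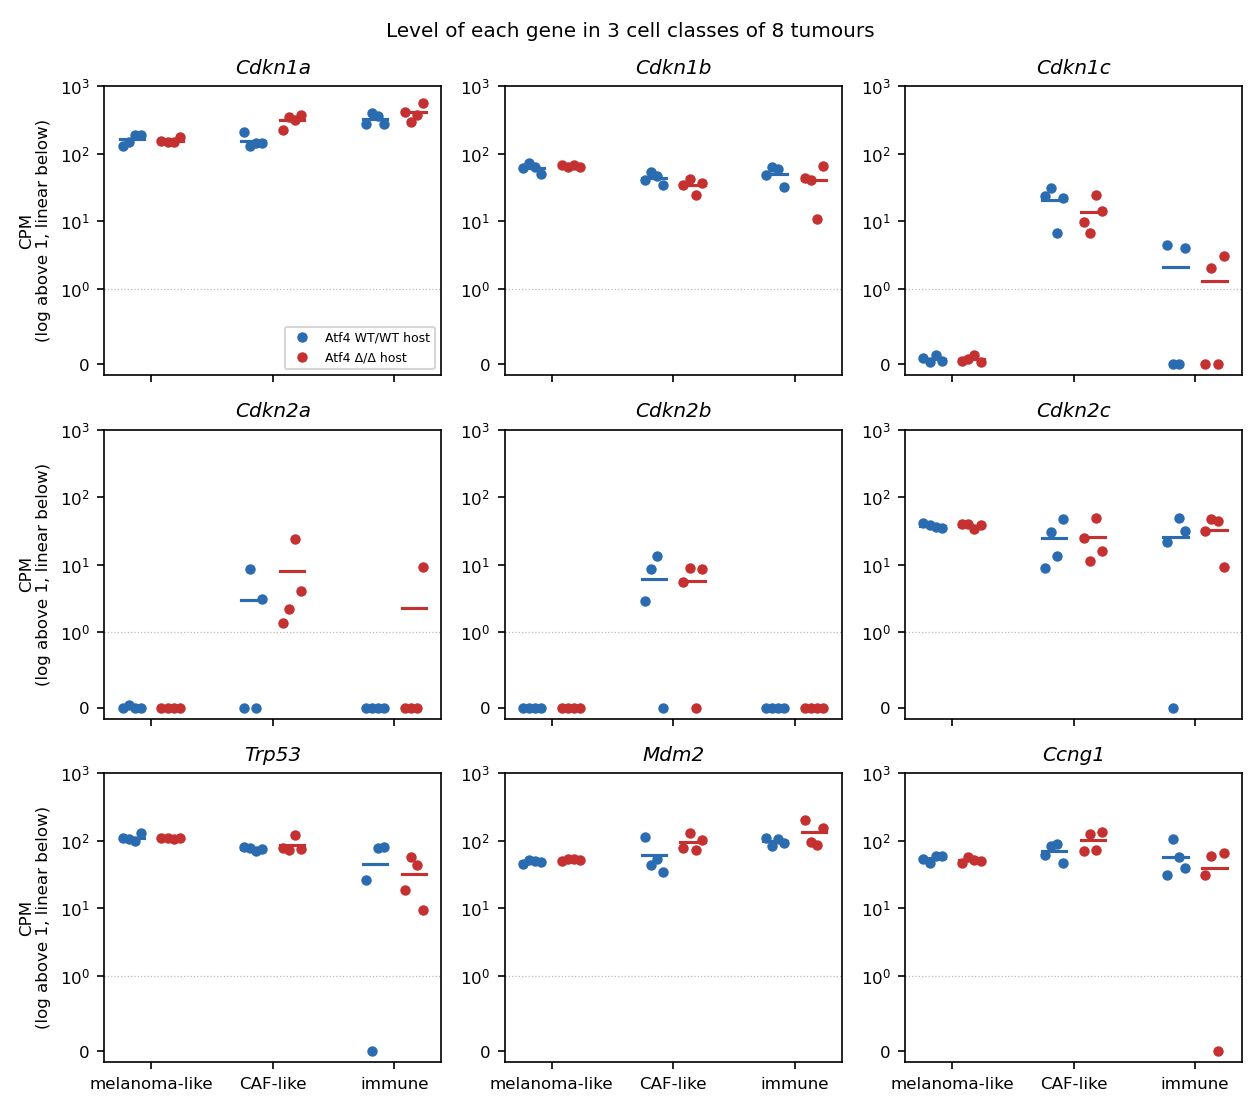
CPM (log scale above 1, linear below) of each of the 9 genes in melanoma-like cells, CAF-like cells and immune cells, with 1 point per tumour coloured by host genotype and a line at each group's mean. Cdkn1c, Cdkn2a and Cdkn2b sit near 0 in melanoma-like cells, and Cdkn1a and Mdm2 have their highest means in immune cells.

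Cdkn1a encodes p21, the inhibitor through which p53 halts the cycle. It ranged from 131 through a median of 151 to 189 CPM in melanoma-like cells, from 127 to 366 in CAF-like cells and from 273 to 557 in immune cells. Its means were 160 ± 20.9, 235 ± 97.6 and 368 ± 93.6 (SD, n = 8 tumours), so that immune cells stood above melanoma-like cells in 8 of 8 tumours and above CAF-like cells in 7 of 8. CAF-like cells exceeded melanoma-like cells in 5 of 8 tumours, with a log2 fold change of 0.62 ± 0.15 (SE; adjusted p = 0.000916). The 5 were all 4 Atf4 Δ/Δ tumours and Atf4 WT/WT tumour 1, so that this value joins tumours of both signs. In endothelial-like cells 19 Cdkn1a UMIs were counted in 105719, or 180 CPM (95% Poisson interval 108 to 281).

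Mdm2 followed the same order. Its means were 50.8 ± 2.7 in melanoma-like, 78.8 ± 34.3 in CAF-like and 117 ± 40.8 in immune cells (SD, n = 8). Immune cells were above melanoma-like cells in every tumour, and CAF-like cells were above them in 6 of 8 (log2 fold change 0.85 ± 0.16, adjusted p = 3.14e-05). The ranges of CAF-like cells (34.7 to 131) and immune cells (83.6 to 201) overlapped. Ccng1 differed from both in being highest in CAF-like cells, at 85.8 ± 30.1 against 53.2 ± 5.47 in melanoma-like cells (log2 fold change 0.91 ± 0.15, adjusted p = 5.85e-06, higher in 7 of 8 tumours), whereas immune cells, at 48.7 ± 30.9, overlapped with melanoma-like cells.

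Trp53 ran the other way. Its level was 110 ± 8.75 in melanoma-like cells, 81.4 ± 16.9 in CAF-like cells and 39.2 ± 30.5 in immune cells (SD, n = 8). CAF-like cells were below melanoma-like cells in all but 1 tumour (log2 fold change -0.38 ± 0.11, adjusted p = 0.00534), the exception being Atf4 Δ/Δ tumour 3, where 5 UMIs were counted. Immune cells were below melanoma-like cells in 8 of 8 (log2 fold change -1.25 ± 0.21, adjusted p = 3.46e-07). The size of this difference depended on the measure, at -2.13 as the mean difference of log2(CPM + 1) in the sign-flip test, in which Atf4 WT/WT tumour 2 had 0 immune Trp53 UMIs, and -1.05 to -1.45 when a tumour was left out. It was -1.26 without immune cells carrying melanoma RNA. In immune cells Trp53 mRNA was therefore lower, and the mRNA of its targets Cdkn1a and Mdm2 higher, than in melanoma-like cells in 8 of 8 tumours. In CAF-like cells Cdkn1a was higher in 5 of 8 tumours and Mdm2 in 6 of 8. Neither of these CAF-like differences passed the sign-flip test (adjusted p = 0.153 and 0.174).

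Cdkn1b, the p27 inhibitor linked to quiescence, was at 63.6 ± 6.1 in melanoma-like cells and at 39.3 ± 8.59 in CAF-like cells, lower in each of the 8 tumours (log2 fold change -0.52 ± 0.14, adjusted p = 0.00162). It missed the threshold when CAF-like cells with melanoma RNA were left out (-0.44, adjusted p = 0.131). In immune cells it was at 45.3 ± 18, and the difference from melanoma-like cells did not pass (adjusted p = 0.195; it passed with a mitochondrial limit of 15%, log2 fold change -0.57, adjusted p = 0.0442). Cdkn2c, the INK4 gene p18, was at 37.8 ± 2.49 in melanoma-like cells, 25.2 ± 15.9 in CAF-like cells (log2 fold change -0.72 ± 0.20, adjusted p = 0.00313, lower in 6 of 8 tumours) and 29.3 ± 17.8 in immune cells (adjusted p = 0.649).

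Of the 6 genes tested in immune against melanoma-like cells, Mdm2 (log2 fold change 1.34 ± 0.17, adjusted p = 2.68e-11), Cdkn1a (1.26 ± 0.13, adjusted p = 5.18e-14) and Trp53 passed, among a background of 45.8% of 11612 genes. Immune Cdkn1a varied between subclusters. Pooled over tumours, the subcluster led by Inhba and Arg1 had Cdkn1a at 762 CPM (95% Poisson interval 601 to 952) and Mdm2 at 386 (274 to 527). The subcluster led by Chil3 and Hp had 517 (445 to 597) of Cdkn1a, and T/NK-like cells had 90.7 (39.2 to 179), from 8 UMIs. Trp53 was at 136 (70.3 to 238) in T/NK-like cells and 39.6 (10.8 to 101) in the Inhba and Arg1 subcluster, with intervals that overlap. Cdkn2c reached 187 (124 to 273) in the immune subcluster led by the mitotic genes Cenpe and Spc25. These intervals cover counting error only.

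The remaining inhibitors were almost absent from the melanoma-like class. Cdkn1c, the imprinted p57 gene, had 18 UMIs in 257205285 in melanoma-like cells (0.0675 ± 0.0396 CPM, SD, n = 8) against 56 in CAF-like cells. There it was found in each tumour at 6.67 to 30.8 CPM. Only 1 UMI was counted in Atf4 Δ/Δ tumour 3, 2 in Atf4 WT/WT tumour 3 and 3 in Atf4 Δ/Δ tumour 2. The pooled ratio was 207 (exact 95% interval 120 to 374, counting error only). Immune cells had 4 UMIs. Cdkn2a had 1 UMI in all melanoma-like cells together and 12 in CAF-like cells, in 6 of 8 tumours. Cdkn2b had 0 UMIs in melanoma-like cells, 28 in CAF-like cells of 6 tumours and 0 in immune cells. The pooled ratio of CAF-like to melanoma-like Cdkn2a was 799, with an exact 95% interval of 118 to 34146 from these few counts. For Cdkn2b, the pooled CAF-like level was at least 621-fold higher than a floor of 3 counts over the melanoma-like class (0.0117 CPM), and the exact interval of the ratio, which also holds the counting error in CAF-like cells, began at 473. Of the CAF-like subclusters, that led by Lrrc15 and Cilp held 9 of the 12 Cdkn2a UMIs and 19 of the 28 Cdkn2b UMIs, with 44.8% of all CAF-like UMIs. By level Cdkn2a was at 5.2 CPM there (95% Poisson interval 2.38 to 9.87) and at 16.8 (3.46 to 49.1) in the subcluster led by Rgs5 and Fabp4, from 3 UMIs, with intervals that overlap. The 3 Cdkn2a UMIs of the immune class were all in dendritic-like cells of Atf4 Δ/Δ tumour 4.

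The genes on either side of the Cdkn2a and Cdkn2b pair were read for the same melanoma-like cells. Mtap, a methionine salvage enzyme gene next to Cdkn2a, was at 148 ± 15.6 CPM in melanoma-like cells (SD, n = 8), above the 84.1 ± 36.9 in CAF-like cells (log2 fold change -0.85 ± 0.12 for CAF-like against melanoma-like, adjusted p = 2.31e-07). Klhl9, farther out on that side, was at 46.9 ± 6.2 and did not pass the test of CAF-like against melanoma-like cells. Ifne, Dmrta1 and Elavl2 were seen in fewer than 3 of the kept cells and gave no level in any class. Counts of RNA do not show whether Cdkn2a and Cdkn2b were missing or silent.

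The known p53 targets of a list of 35 genes were split between classes. In CAF-like against melanoma-like cells 13 of 30 tested were higher (25.2% of all genes) and 4 lower (28.3%), with a median log2 fold change of 0.23 against -0.12 over all genes. Those higher were led by the death receptor Fas (7.93 ± 0.42), the antiproliferative Btg2 (4.67 ± 0.17), Ak1 (3.35 ± 0.20) and the peptide transporter Tap1 (2.74 ± 0.33), and the repair gene Xpc was lowest (-1.52 ± 0.23). In immune cells 11 of 30 were higher (19.9% of all genes) and 8 lower (25.9%), led by Pmaip1 (10.19 ± 0.49), the BH3-only gene NOXA, and the cytokine gene Gdf15 (5.80 ± 0.24). Fas, Tap1 and Btg2 also respond to immune and growth signals, and none of these genes answers to p53 alone. Of 16 regulators of p53, 14 were tested in CAF-like cells, and 6 were lower and 0 higher, among them the checkpoint kinase genes Chek1 (-1.18 ± 0.28) and Chek2 (-1.16 ± 0.33). In a list of 20 cyclin, CDK and E2F genes that also holds Skp2 and Pcna, 13 were lower and 3 higher in CAF-like cells. Cdk2 was at -1.76 ± 0.14 and Cdk6 at 0.98 ± 0.28. In a list of 16 other cell cycle inhibitors and related genes, Lin9 and Lin54 among them, 2 were higher in CAF-like cells and 4 were lower. The higher ones were the growth arrest gene Gas1 (11.30 ± 0.41) and Btg1 (1.43 ± 0.12). For Fas, Gas1 and, in immune cells, Pmaip1 the melanoma-like level was only a very small part of the host level. These genes may have entered the fits through the host class alone, which was not tested, and their fold changes are descriptions.

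By host genotype, Cdkn1a in CAF-like cells stood out among the 9 genes. It was at 210, 127, 143 and 142 CPM in the 4 Atf4 WT/WT tumours (71, 29, 43 and 45 UMIs) and at 222, 349, 318 and 366 in the 4 Atf4 Δ/Δ tumours (160, 155, 13 and 541 UMIs). The groups did not overlap, although the lowest Atf4 Δ/Δ tumour was close to the highest Atf4 WT/WT tumour. In the same direction 1.62% of the 4637 genes tested had groups that did not overlap. The log2 fold change was 1.02 ± 0.21 (SE), the sixth smallest p of 4637 genes in edgeR's quasi-likelihood test, and it did not pass adjustment over all genes (adjusted p = 0.212). With every gene with at least 1 count in the fit it passed (log2 fold change 1.01, adjusted p = 0.00162), and over 17 alternatives the log2 fold change ranged from 0.90 to 1.20 and the adjusted p from 0.00162 to 0.867. The exact two-sided permutation test gave p = 0.0286, the smallest that 4 against 4 tumours can give. Groups without overlap always give this value, and adjusted over the 9 genes the permutation p was 0.257. None of the 5 genes tested passed, where 0.0431% of all genes did.

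Mdm2 and Ccng1 in CAF-like cells had the same sign with overlapping groups. Mdm2 was at 112, 44, 53.3 and 34.7 in Atf4 WT/WT and 79.2, 131, 73.5 and 103 in Atf4 Δ/Δ tumours (log2 fold change 0.72 ± 0.32, adjusted p = 0.73). Ccng1 was at 62, 83.5, 90 and 47.3 in Atf4 WT/WT and 70.9, 124, 73.5 and 135 in Atf4 Δ/Δ tumours (log2 fold change 0.67 ± 0.27, adjusted p = 0.695). Trp53 itself was at 79.8, 79.1, 70 and 75.6 in Atf4 WT/WT and 77.9, 72, 122 and 74.5 in Atf4 Δ/Δ tumours (log2 fold change 0.05 ± 0.18). Only Atf4 Δ/Δ tumour 3, with 10 CAF-like cells, stood apart for Trp53. Of the p53 target list, 10 of 35 genes were tested in CAF-like cells, 0 passed, and 9 had a positive log2 fold change with a median of 0.25, where the median of all genes was -0.01. The summed level of the list was 1003 to 1223 CPM in Atf4 WT/WT and 1176 to 1441 in Atf4 Δ/Δ CAF-like cells, with overlapping ranges.

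**Figure D2:**
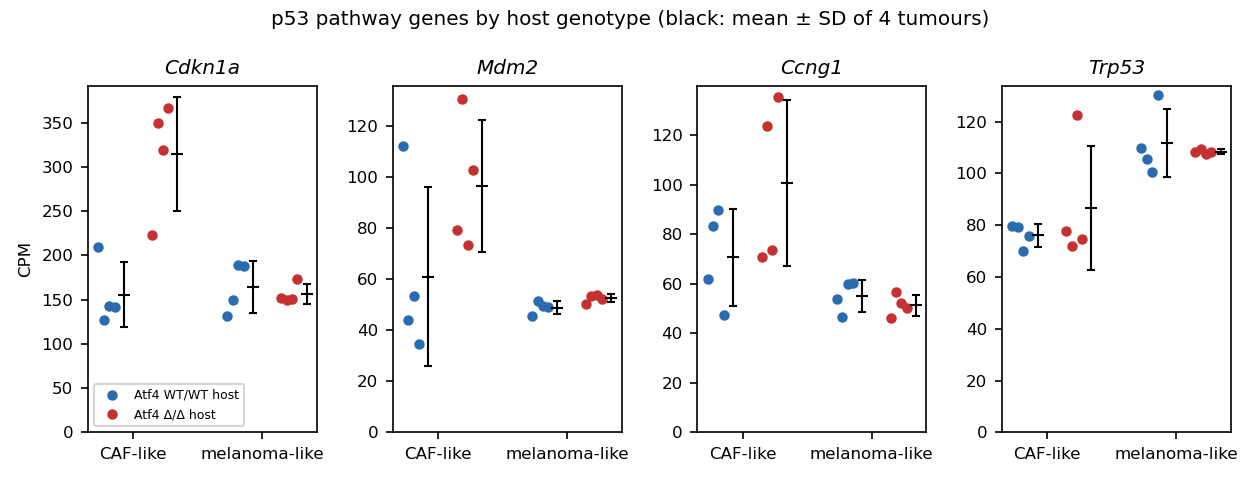
CPM of Cdkn1a, Mdm2, Ccng1 and Trp53 in CAF-like and melanoma-like cells by host genotype, with 1 point per tumour and the mean ± SD of 4 tumours in black. Cdkn1a in CAF-like cells runs from 222 to 366 in Atf4 Δ/Δ and from 127 to 210 in Atf4 WT/WT tumours, whereas the melanoma-like groups overlap for all 4 genes.

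In melanoma-like cells, which keep Atf4 in both hosts, Cdkn1a was at 131, 149, 189 and 188 in Atf4 WT/WT and at 152, 150, 150 and 173 in Atf4 Δ/Δ tumours (log2 fold change -0.11 ± 0.12, adjusted p = 0.751). The 6 genes tested had log2 fold changes from -0.14 (Ccng1) to 0.06 (Mdm2), and 0 passed, where 0.0319% of 12554 genes did. In immune cells 0 of 4 passed, where 0.0306% of 3264 genes did, and Cdkn1a was at 277, 397, 360 and 273 in Atf4 WT/WT and 414, 297, 372 and 557 in Atf4 Δ/Δ tumours (log2 fold change 0.38 ± 0.25, adjusted p = 0.593). At an unadjusted p under 0.05 the edgeR test marked 11.3% of genes in melanoma-like cells (1422), 6.58% in CAF-like cells (305) and 10.9% in immune cells (357), and of the genes described here 0 of 6, 3 of 5 (Cdkn1a, Mdm2 and Ccng1) and 0 of 4.

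The difference between the genotype effects of the 2 classes was tested directly, in 1 fit with the tumour as a block. That fit took 1 spread per gene for both classes, although the melanoma-like sums were far deeper than the CAF-like sums. For Cdkn1a the genotype effect was larger in CAF-like than in melanoma-like cells by 1.10 ± 0.24 on the log2 scale (adjusted p = 0.0134), and 0.28% of 11770 genes passed in this test. The same difference was 0.85 ± 0.26 for Ccng1 (adjusted p = 0.279), 0.70 ± 0.28 for Mdm2 (adjusted p = 0.673) and 0.17 ± 0.25 for Trp53. The log2 ratio of the CAF-like to the melanoma-like level was 0.68, -0.23, -0.40 and -0.41 in the Atf4 WT/WT tumours and 0.55, 1.22, 1.08 and 1.08 in the Atf4 Δ/Δ tumours, so that Atf4 WT/WT tumour 1 lay above Atf4 Δ/Δ tumour 1. An exact two-sided permutation test of these ratios gave p = 0.0571. The call was also lost without Atf4 WT/WT tumour 4 (0.97, adjusted p = 0.115) and when only the genes that passed the filter in CAF-like sums were tested (1.09, adjusted p = 0.255).

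In each of the 5 CAF-like subclusters the pooled Cdkn1a value of the Atf4 Δ/Δ tumours was above that of the Atf4 WT/WT tumours. In the subcluster led by Lrrc15 and Cilp it was 333 (95% Poisson interval 300 to 368) against 148 (119 to 181), and in that led by Cxcl13 and Clec3b 438 (374 to 509) against 102 (46.7 to 194). The intervals overlapped in the subcluster led by Pgf and Ndrg1, at 357 (304 to 416) against 254 (157 to 388), and in those led by Syt4 and Dct or by Rgs5 and Fabp4. These intervals hold counting error only and not the spread between tumours, and Atf4 Δ/Δ tumour 4 gave most of the UMIs. Ccng1 in the Lrrc15 and Cilp subcluster was at 160 (138 to 186) against 82 (60.9 to 108), and Mdm2 at 120 (101 to 142) against 75.5 (55.3 to 101). In the Syt4 and Dct subcluster Ccng1 went the other way, at 64.2 (46.3 to 86.8) against 85.9 (55.6 to 127), with intervals that overlap.

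**Figure D3:**
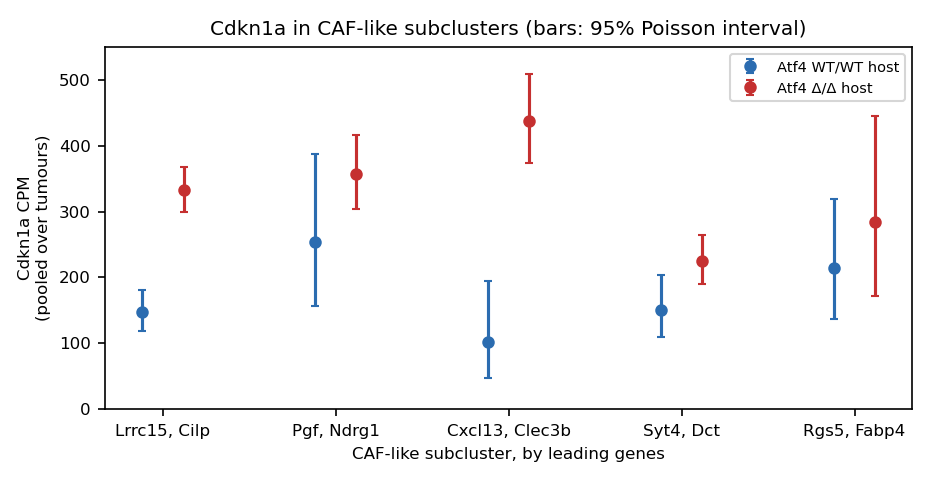
Pooled Cdkn1a CPM in 5 CAF-like subclusters, named by leading genes, for each host genotype, with 95% Poisson intervals that cover counting error only. The intervals of the 2 genotypes are apart in the Lrrc15, Cilp subcluster (333 against 148) and in the Cxcl13, Clec3b subcluster (438 against 102).

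Other measures were read in the same CAF-like cells. The Pgf and Ndrg1 subcluster, which carried hypoxia genes, made up 20% to 30% of CAF-like cells in Atf4 Δ/Δ and 0% to 18.8% in Atf4 WT/WT tumours. Without it Cdkn1a was at 222 to 396 against 110 to 213. The hypoxia list summed to 3969 to 5508 CPM in Atf4 Δ/Δ and 2866 to 5303 in Atf4 WT/WT CAF-like cells, with overlapping ranges. The share of CAF-like cells called G1, 76.7% to 90% against 57.1% to 81.7%, overlapped as well. The part of the hypoxia genes and of the phase in the Cdkn1a difference was not tested. Without the Dct subcluster Cdkn1a was at 248 to 404 against 138 to 199. When all CAF-like cells with 3 or more UMIs of the melanoma markers were left out, a choice that left Atf4 Δ/Δ tumour 3 with 2 cells and 1 Cdkn1a UMI, the levels were 244, 224, 176 and 346 against 193, 127, 129 and 159 and the groups overlapped.

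Within the melanoma-like class the members were ordered by the cell cycle. Cells were called G1 (11721 cells), S (6024) or G2/M (5971) from phase genes that include none of the 9, and 6 of the 9 genes could be tested. All 6 differed from G1 in both phases, which has to be read against a background of 71.9% of 11461 genes for G2/M and 73.3% for S.

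Cdkn1a fell from 193, a median of 216, and 269 CPM in G1-called cells to 96, 111 and 142 in S-called and 85.2, 108 and 115 in G2/M-called cells (lowest, median and highest of 8 tumours). G1-called cells were highest in every tumour, with no overlap (log2 fold change -0.96 ± 0.04 for S, adjusted p = 4.81e-24, and -1.10 ± 0.04 for G2/M, adjusted p = 5.71e-26). Ccng1 had the same shape, from 68.8 ± 9.69 in G1 to 39.9 ± 2.01 in S and 42.5 ± 4.08 in G2/M (SD, n = 8). Mdm2 went from 58.2 ± 3.62 to 42.7 ± 2.17 and 47.8 ± 4.05, and it was higher in G2/M than in S in 8 of 8 tumours. The 3 p53 targets were thus all lower in both cycling calls than in G1.

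Cdkn1b was low in S only, at 43.1 ± 4.8 against 73.1 ± 8.8 in G1 and 69.7 ± 6.8 in G2/M (log2 fold change -0.78 ± 0.04 for S, adjusted p = 3.41e-19, and -0.09 ± 0.04 for G2/M, adjusted p = 0.0468). The small G2/M difference was lost without any of 5 tumours (adjusted p from 0.0514 to 0.259 without Atf4 WT/WT tumour 2 or 3 or Atf4 Δ/Δ tumour 1, 3 or 4), and also by the sign-flip test (adjusted p = 0.188), with library totals in place of TMM scaling (0.133) and with a mitochondrial limit of 15% (0.107). G1 exceeded S in 8 of 8 tumours and G2/M in 5 of 8. Cdkn2c rose with the cycle, from 20.9, 23.8 and 27.2 in G1 through 29.4, 34.1 and 38 in S to 52, 61.8 and 69.9 in G2/M (lowest, median and highest of 8 tumours), with no overlap between phases (log2 fold change 0.54 ± 0.05 and 1.35 ± 0.04). A CDK inhibitor gene was therefore most abundant in the cells with G2/M genes. Trp53 was 93.7 ± 8.58 in G1, 128 ± 9.41 in S and 117 ± 9.53 in G2/M, with S above G2/M in each tumour.

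**Figure D4:**
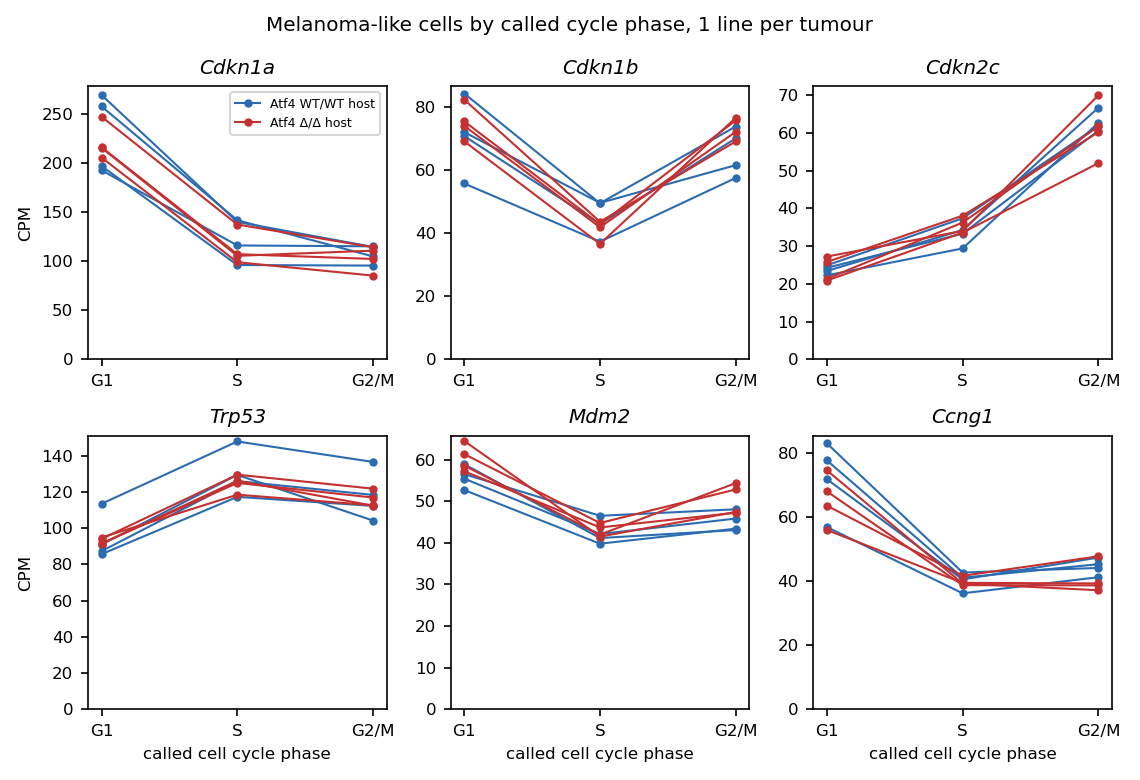
CPM of 6 genes in melanoma-like cells called G1, S or G2/M, with 1 line per tumour coloured by host genotype. Cdkn1a, Mdm2 and Ccng1 are highest in G1 in all 8 tumours, Cdkn2c rises to 52 to 69.9 in G2/M, and Cdkn1b dips in S.

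The p53 target list was lower outside G1 in the same way, with 22 of 30 lower and 2 higher in G2/M (36.9% and 35% of all genes) and 19 lower and 4 higher in S (38.3% and 35%). Gadd45a (-1.62 ± 0.07), Trp53inp1 (-1.50 ± 0.06) and Btg2 (-1.48 ± 0.10) were the lowest in G2/M, and Pidd1 was highest (1.46 ± 0.14). Among regulators of p53, Chek1 (1.91 ± 0.08) and Chek2 (1.16 ± 0.07), kinases of the DNA damage checkpoint, were higher in G2/M. In the list of other inhibitors and related genes 10 of 15 tested were higher in G2/M. Among them were Cdkn3 (2.41 ± 0.06), Pkmyt1 (2.22 ± 0.09), the pocket protein gene Rbl1 (1.99 ± 0.07) and Lin9 (1.87 ± 0.07). The median UMI count was 8878 in G1-called cells, 12029 in S and 12446 in G2/M, and the part of depth in the calls was not tested.

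The melanoma-like clusters showed the same ordering with some exceptions. Cdkn1a was highest in the cluster led by Espn, Ndrg1 and Sap30 (318 ± 57.6 CPM, SD, n = 8), and was at 257 ± 37 in that led by Fgf21 and Grb14 and 254 ± 30.4 in that led by Espn, Selenbp1 and Car9, 3 levels whose ranges overlapped. It was lowest in the cluster led by the mitotic genes Cenpf and Ube2c (65.7 ± 7.14), where Cdkn2c was highest (80.5 ± 6.26). The Espn, Ndrg1 and Sap30 cluster had mitotic genes such as Anln and Bub1 among its leading genes and also held the highest Cdkn1b (124 ± 18.1). Ccng1 was lowest in that cluster (36 ± 4.29) although Cdkn1a and Mdm2 (68.3 ± 10.7) were not, so that the p53 targets did not move as 1 block across clusters.

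The melanoma-like cells of each tumour were divided at the upper 25% by the share of UMIs in 15 hypoxia genes such as Car9, Bnip3 and Vegfa, none of which is among the 9 genes. Cdkn1a was at 228, 283 and 332 CPM in hypoxia-high cells and 94.1, 119 and 162 in the rest (lowest, median and highest of 8 tumours), higher in each tumour and with no overlap (log2 fold change 1.32 ± 0.09, adjusted p = 9.71e-10). Cdkn1b was at 96.5 ± 18.8 against 54 ± 3.11, higher in 8 of 8 (0.92 ± 0.07, adjusted p = 2.82e-09). Mdm2 was at 61 ± 8.45 against 47.8 ± 2.94, higher in 7 of 8 (0.45 ± 0.06, adjusted p = 6.35e-06). Cdkn2c (25.8 ± 2.8 against 41.3 ± 3.17, log2 fold change -0.60 ± 0.05) and Trp53 (94.9 ± 9.28 against 114 ± 9.05, log2 fold change -0.18 ± 0.03) were lower in 8 of 8 tumours. Thus 5 of 6 tested genes passed, where 60.1% of 11721 genes did. The exception was Ccng1, at 52.6 ± 5.77 against 53.4 ± 6.12, with a log2 fold change of 0.07 ± 0.05 (adjusted p = 0.197), although it is a p53 target like Cdkn1a and Mdm2.

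In the p53 target list 13 of 30 genes were higher (30% of all genes) and 5 lower (30.1%) in hypoxia-high cells. The highest was Ddit4 (1.55 ± 0.05), an inhibitor of mTOR signalling that is also a hypoxia gene, followed by Gadd45a (0.91 ± 0.12), Plk2 (0.77 ± 0.09) and Btg2 (0.71 ± 0.15). The median over the list was 0.09, where that of all genes was -0.00168. Of the 20 cyclin, CDK, E2F and related genes 15 were lower, with Ccne1 at -0.96 ± 0.08 and Ccnb1 at -0.73 ± 0.07. The 2 that were higher were Ccnd2 (0.32 ± 0.03) and Ccnd1 (0.13 ± 0.04). The comparison was repeated in G1-called cells. Cdkn1a (0.90, adjusted p = 1.35e-09), Cdkn1b (0.77), Mdm2 (0.35) and Cdkn2c (-0.72) kept their direction and passed. Ccng1 turned to -0.18 (adjusted p = 0.0125), and Trp53 no longer passed (-0.08, adjusted p = 0.0804). Without Atf4 Δ/Δ tumour 4 Ccng1 passed in the other direction (0.12, adjusted p = 0.0374).

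Cells with and without Cdkn1a were then compared, after each melanoma-like cell had been thinned to 5000 UMIs to bring all cells to the same depth. At least 1 Cdkn1a UMI was present in 8010 of 22262 cells, and 1454 shallower cells were left out. The share was 31.3% to 40.7% per tumour, against 43.5% to 53.6% before thinning. Melanoma-like, CAF-like, immune and endothelial-like cells all had Cdkn1a UMIs, so no class gave the share that free RNA alone would leave, and having or lacking a UMI is not a call of expression. Cdkn1a chose the cells and is no result here. Of the 5 other genes tested, 4 passed, where 39% of 10776 genes did. Ccng1 differed most, at 66.2, 80.1 and 95.6 CPM in cells with a Cdkn1a UMI and 31.6, 37.4 and 39.3 in cells without (lowest, median and highest of 8 tumours), and the 2 sets did not overlap (log2 fold change 1.19 ± 0.05, adjusted p = 6.31e-21). It had the tenth smallest p of all genes. Mdm2 was at 58.3, 66 and 70.7 against 38.6, 44.3 and 49.4, also without overlap (0.59 ± 0.04, adjusted p = 6e-14). Cdkn1b was at 80.4 ± 12.9 against 58.7 ± 5.06 (0.50 ± 0.04), higher in 8 of 8 tumours, and Cdkn2c at 29 ± 3.04 against 39 ± 2.12 (-0.40 ± 0.05), lower in 8 of 8. Trp53 was at 107 ± 14.9 against 111 ± 6.61 (-0.02 ± 0.03, adjusted p = 0.741) and higher in 2 of 8 tumours. The cells with a Cdkn1a UMI therefore had higher levels of Ccng1 and Mdm2, without a difference in Trp53 that passed the test. In G1-called cells alone Ccng1 was higher by 1.23 and Mdm2 by 0.57 on the log2 scale, and in G1-called cells outside the hypoxia-high part, a choice made after seeing the data, by 1.38 (adjusted p = 1.15e-42) and 0.58 (adjusted p = 1.69e-11). There Cdkn1b was at 0.19 (adjusted p = 0.076).

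The p53 target list moved in 1 direction in this comparison, with 20 of 29 tested genes higher (21.6% of all genes) and 0 lower (17.3%), and a median log2 fold change of 0.57 against 0.01 over all genes. Btg2 (1.84 ± 0.11), Trp53inp1 (1.56 ± 0.07), an autophagy and cell death gene, Gdf15 (1.36 ± 0.19) and Phlda3 (1.11 ± 0.04), an inhibitor of Akt, led it. Hypoxia genes were higher in 14 of 15 (Ero1l 1.41 ± 0.04). In a list of stress response genes, Xbp1 and Dnajb9 among them, 10 of 10 were higher (Fgf21 1.45 ± 0.13, Atf3 0.94 ± 0.06). The cells with a Cdkn1a UMI therefore differed in more than 1 pathway. Cyclin, CDK, E2F and related genes were lower in 11 of 20 and higher in 2, with Ccnb1 at -0.71 ± 0.05 and Ccna2 at -0.61 ± 0.05. Among the regulators of p53, 5 of 14 were higher and 1 lower, all by less than Ccng1, and Mdm4, the partner of Mdm2, was at 0.20 ± 0.05.

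**Figure D5:**
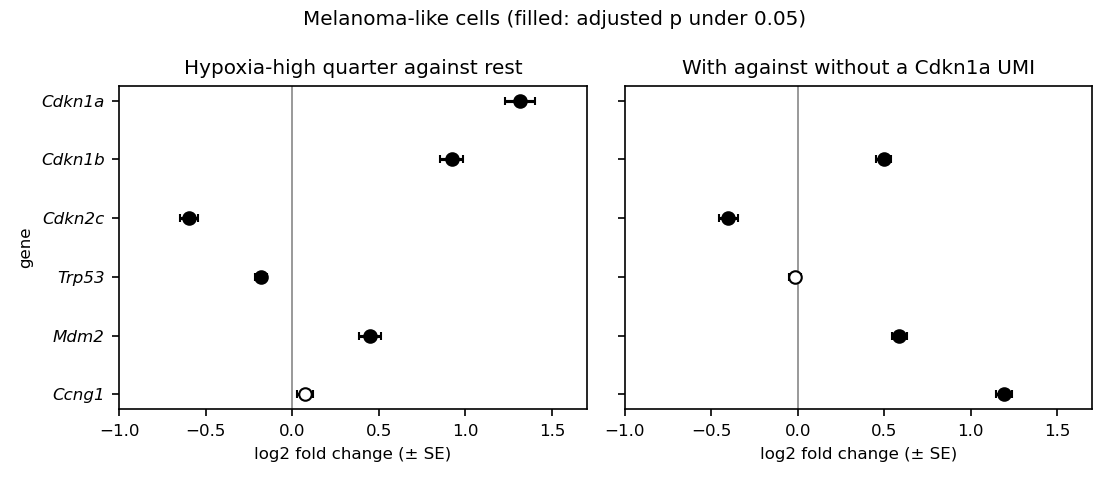
Log2 fold change ± SE of 6 genes in hypoxia-high against other melanoma-like cells, and of 5 genes in cells with against without a Cdkn1a UMI, with filled points for adjusted p under 0.05 in edgeR's quasi-likelihood test. Ccng1 is near 0 (0.07) in the hypoxia comparison and highest (1.19) in the Cdkn1a comparison, and Trp53 is near 0 (-0.02) in the latter.

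Genes most like each of the 6 were ranked by Pearson correlation of log2 levels over 69 sums of a melanoma-like cluster in a tumour, which share libraries and cell cycle states, so that the coefficients are descriptions. Cdkn1a was nearest to Cyr61 (0.912), P4ha1 (0.911) and Atf3 (0.904), Ccng1 to the p53 target Trp53inp1 (0.873), Map1lc3b (0.843) and Procr (0.830), and Mdm2 to Slc25a36 (0.876), Sertad1 (0.872) and Rlf (0.865). Cdkn1b was nearest to Alkbh5 (0.910), Cdkn2c to Calm2 (0.890) and the mitotic checkpoint gene Bub3 (0.884) and Trp53 to Eif1ad (0.796) and Mybl2 (0.794). Among the 6 genes themselves Cdkn1a lay closest to Mdm2 (0.764) and Cdkn1b (0.723) and farther from Ccng1 (0.280), and Trp53 lay closest to Cdkn2c (0.608) and was negatively related to Cdkn1a (-0.324), Mdm2 (-0.518) and Ccng1 (-0.535).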

How the data were processed

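Tumours were dissociated and run on a 10x Genomics 3′ kit, and the authors deposited 1 matrix of raw UMI counts per tumour. The submitters' processing notes name Cell Ranger 3.1.0, Seurat 3.2.1 and GRCm38. The samples were grouped by the host genotype in the labels. From the deposited counts, cells were kept if they had between 200 and 5000 genes and no more than 7.5% of their UMIs on mitochondrial genes, then normalised, merged by genotype and integrated on 2000 variable genes without the 9 genes, and 20 principal components were clustered in Seurat 5.3.0 at resolution 0.6 into 15 clusters (28411 cells). A cluster of 241 cells, of which 230 came from Atf4 WT/WT tumour 4, was removed. Classes were named from marker genes. Doublets were not called. Of the kept cells, 188 (0.667%) had a barcode that another library shared.

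UMIs were summed per tumour and class and tested with edgeR 4.0.16 (TMM, quasi-likelihood test, Benjamini-Hochberg over all genes tested, called at an adjusted p under 0.05). Comparisons of classes, phases and states had the tumour as a block. The genotype fits and a block fit were also run on simulated counts with the same fixed spread for every class. The outcome is not used as support here. Single genes were also tested by exact permutation over the 70 assignments of tumours. The labels call the tumours biological replicates. Intervals of levels are exact Poisson and those of pooled ratios exact binomial, and both cover counting error only.

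All 9 genes are named, together with all genes of the Cdkn2a locus list. From the other lists at most the 4 genes with the largest log2 fold change in each direction are named, among those that passed. The genes, lists and tests were chosen with earlier results of these data known. Alternatives were DESeq2 1.42.0, filters, scaling, the replicate number as a block, host sex, leaving out each tumour, other limits on cells and other cuts.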

Additional observations from a re-analysis of the deposited data

Results flagged for a closer look

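Among 43 groups of 4 tumours tested for a sample far from the others, 3 had one, and chance gives about 1 in 20. Cdkn1a in melanoma-like cells of Atf4 Δ/Δ tumour 4 was at 173 CPM (5561 UMIs), where the other Atf4 Δ/Δ tumours were at 150 to 152; the 4 Atf4 WT/WT tumours ranged from 131 to 189. In CAF-like cells of Atf4 Δ/Δ tumour 3 Cdkn2a was at 24.5, from 1 UMI, against 1.39 to 4.06 in the others of its group, and Trp53 was at 122, from 5 UMIs, against 72 to 77.9. That tumour had 10 CAF-like cells.

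The genotype effect on Cdkn1a was larger in CAF-like than in melanoma-like cells by 1.1 on the log2 scale. This came from the test of the difference itself (adjusted p = 0.0134 in edgeR's quasi-likelihood test), which took 1 spread per gene for both classes. The call was lost without Atf4 WT/WT tumour 4 (adjusted p = 0.115), when only genes that passed the filter in CAF-like sums were tested (0.255) and in the exact permutation test of the log2 ratios (p = 0.0571).

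Cdkn1a was also present in both clusters that were left unnamed and entered no comparison. Pooled over tumours it was at 267 CPM (95% Poisson interval 240 to 296) in 805 cells with a median of 1031 UMIs and 0.169% mitochondrial counts, and Cdkn1a was itself among the leading genes of that cluster. In the other unnamed cluster, of 1990 cells led by Malat1, it was at 156 (143 to 170). The endothelial-like and the unnamed cells had 0 Cdkn2a UMIs.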

How the results depend on the processing

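The counts of genes that passed by host genotype were small and unstable. In melanoma-like cells 4 genes passed, and 119 with DESeq2, 7 with every gene with at least 1 count, 0 with the replicate number as a block, 0 with host sex as a term, 1 without an upper limit on genes per cell, 2 with a mitochondrial limit of 15% and 0 to 21 when a tumour was left out, with 21 without Atf4 Δ/Δ tumour 3. In CAF-like cells 2 passed, against 4, 102, 0, 0, 1, 0 and 0 to 1 in the same order, 0 without cells carrying melanoma RNA, 1 without the Dct subcluster and 0 without the Pgf and Ndrg1 subcluster. In immune cells 1 passed, against 1, 86, 0, 0, 1, 0 and 0 to 2, and 0 without cells carrying melanoma RNA. The cause was not tested. In the count of the 9 genes that passed between CAF-like and melanoma-like cells, 7 became 3 by the exact sign-flip test, 9 with every gene with at least 1 count and 5 without cells carrying melanoma RNA, where Cdkn1c could not be tested, and between immune and melanoma-like cells 3 became 5 with every gene with at least 1 count. Leaving out a tumour gave 7 throughout for CAF-like and 3 throughout for immune against melanoma-like cells, 5 to 6 for G2/M, 6 for S, 5 to 6 for hypoxia-high cells and 4 for cells with a Cdkn1a UMI. The genotype difference of Cdkn1a between CAF-like and melanoma-like cells, with all its alternatives chosen after seeing the data, was 0.97 to 1.42 without 1 tumour, 1.09 with the CAF-like filter and 1.07 by the permutation test of the log2 ratios. It did not pass without Atf4 WT/WT tumour 4 (0.97) or in the last 2. Ccng1 in hypoxia-high cells was -0.18 in G1-called cells against 0.07. Over 758 values of single genes under an alternative, 739 kept their side of the threshold, 15 lost it, 3 gained it and 1 reversed.

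The labels number the tumours 1 to 4 in both genotypes, but nothing in them ties a number to a litter or day. The correlation of same-numbered tumours was -0.399 to -0.0715 in melanoma-like, -0.128 to 0.144 in CAF-like and -0.24 to 0.196 in immune cells, and a tumour correlated best with its own number in 0, 2 and 0 of 4 pairs, so the tumours were not taken as paired. With the replicate number as a block 0 genes passed in each class, where 4, 2 and 1 passed without it. Depth limits the host classes most, since Atf4 Δ/Δ tumour 3 held 10 CAF-like cells.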
